A study of Mus musculus with 6 samples.

Results

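The 46 genes described here act in mitosis: they encode the machinery that takes a cell from the start of chromosome condensation to the separation of its daughters. They were chosen by name for their function, with earlier results of these data known. All 46 were among the 12826 genes of the deposited table, and all 46 passed the filter on low values that left 10914 genes for testing. They fall into 8 groups by role: 8 cyclins and regulators of Cdk1, 6 mitotic kinases and chromosomal passenger proteins, 3 anaphase regulators, 5 spindle checkpoint proteins, 5 centromere and kinetochore proteins, 9 kinesins and spindle proteins, 3 cytokinesis proteins, and 7 condensin and mitotic chromosome proteins.

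The RNA came from ETX-embryos, which are embryo-like structures that form in culture when 3 kinds of mouse stem cell aggregate, namely embryonic stem cells, trophoblast stem cells and XEN cells of the extraembryonic endoderm. Every structure carried a T/Brachyury-GFP reporter and received no treatment, and no age is given in the labels. The trophoblast compartment was removed, the embryonic compartment was cut lengthwise, and the piece with GFP was taken as prospective posterior and the piece without it as prospective anterior. Both pieces of 3 individual structures, called embryos A, B and C, gave 1 Smart-seq2 library each, with 18 cycles of preamplification, so there are 3 anterior and 3 posterior libraries. Clonal origin of the reporter line is not given in the labels. Because pieces were bulk samples, fewer cells in mitosis and less mitotic RNA per cell cannot be told apart.

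Cells enter mitosis when cyclin A2 and the B-type cyclins activate the kinase Cdk1. The spindle checkpoint then delays anaphase until every kinetochore is attached to microtubules, by holding back Cdc20, the activator of the anaphase-promoting complex (APC/C). Once the checkpoint is satisfied, the APC/C marks cyclin B and securin (Pttg1) for destruction, the sister chromatids part, and the central spindle directs cytokinesis. Most of these genes are transcribed in a wave late in the cell cycle. Pluripotent epiblast cells are known for short cycles, so such transcripts are abundant in early embryonic tissue.

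That wave is classically linked to 2 short promoter elements, the cell cycle genes homology region (CHR), read here as TTTGAA or TTCGAA, and the CCAAT box. RefSeq promoters (build GRCm38.p6, 250 bases before to 50 after the start) were found for 39 of the 46 genes. Aurkb, Ccna2, Cdc25c, Incenp, Kif20a, Smc4 and Tpx2 were not matched. They comprise 42 windows, and in 31 of these the letters after the start were found in a GENCODE transcript of the gene. Letters were searched on both strands, and different motifs overlapped at 1 place in these promoters. Of the 39, 30 (76.9%) held a CHR, compared with 21.7% of 27025 gene symbols in the promoter table and 15.9% of the 7698 tested genes found there. Within 50 bases of the start the CHR was present in 27 (69.2%), against 6.12% of all symbols and 4.34% of the tested genes. A CCAAT box stood in 29 (74.4%), against 41.1% of all symbols and 43.9% of the tested genes. At least 2 were in 19 (48.7%), against 13.3% and 17.3%. Both elements were in 26 (66.7%), against 9.65% and 8.08%. The letters TTTCGCGC or TTTGGCGC, an E2F-type element, were in 2 of the 39 (Cdk1 and Ncapd2). Of all symbols 0.929% held them, and of the tested genes 2.05%. These matches describe letters only, and no binding was measured here.

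The following 250 bases before the start (5′ to 3′ on the gene's strand) are shown because they span the arrangements seen among the genes whose libraries are described below. Capitals mark CHR, CCAAT (or ATTGG on the other strand) and E2F-type matches. They belong to Cdk1 (chr10:69352913-69353162, minus strand), Cdc20 (chr4:118437344-118437593, minus), Top2a (chr11:99024190-99024439, minus), Ccnb2 (chr9:70421555-70421804, minus), Hmmr (chr11:40733438-40733687, minus) and Cenpe (chr3:135212313-135212562, plus), all in build GRCm38.p6.
Cdk1: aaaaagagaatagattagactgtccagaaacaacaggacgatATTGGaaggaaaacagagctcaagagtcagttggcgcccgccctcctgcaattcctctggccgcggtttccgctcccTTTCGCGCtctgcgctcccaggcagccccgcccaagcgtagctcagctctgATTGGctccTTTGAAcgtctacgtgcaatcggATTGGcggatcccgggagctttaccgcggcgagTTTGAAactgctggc
Cdc20: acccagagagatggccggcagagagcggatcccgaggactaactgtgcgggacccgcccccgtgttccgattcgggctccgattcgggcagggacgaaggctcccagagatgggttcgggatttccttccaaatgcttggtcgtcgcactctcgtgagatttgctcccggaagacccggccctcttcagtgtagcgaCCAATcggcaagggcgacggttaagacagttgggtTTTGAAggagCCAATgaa
Top2a: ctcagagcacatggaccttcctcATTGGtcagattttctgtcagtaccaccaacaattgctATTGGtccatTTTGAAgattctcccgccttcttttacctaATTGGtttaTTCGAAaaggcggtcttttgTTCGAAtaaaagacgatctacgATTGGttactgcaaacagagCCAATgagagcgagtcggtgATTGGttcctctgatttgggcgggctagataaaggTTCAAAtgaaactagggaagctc
Ccnb2: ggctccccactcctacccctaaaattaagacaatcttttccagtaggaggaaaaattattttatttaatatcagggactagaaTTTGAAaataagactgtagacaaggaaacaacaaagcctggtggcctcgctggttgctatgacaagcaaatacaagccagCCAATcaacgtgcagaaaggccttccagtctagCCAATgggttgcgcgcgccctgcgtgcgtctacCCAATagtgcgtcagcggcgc
Hmmr: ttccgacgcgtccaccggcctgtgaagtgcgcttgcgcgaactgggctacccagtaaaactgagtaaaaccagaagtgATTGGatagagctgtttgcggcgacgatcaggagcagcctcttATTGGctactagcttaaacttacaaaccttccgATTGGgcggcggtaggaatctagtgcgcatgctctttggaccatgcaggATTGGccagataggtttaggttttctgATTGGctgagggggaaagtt
Cenpe: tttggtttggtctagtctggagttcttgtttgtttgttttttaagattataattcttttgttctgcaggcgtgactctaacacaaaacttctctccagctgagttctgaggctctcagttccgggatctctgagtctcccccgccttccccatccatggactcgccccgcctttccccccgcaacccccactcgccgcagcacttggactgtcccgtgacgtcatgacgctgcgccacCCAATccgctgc
Positions are those of a match's first letter, with -1 the last base before the start. In Cdk1 the CHR is at -71 and -15, and in Cdc20 it is at -18, between CCAAT boxes at -53 and -8. Top2a holds 4 CHR matches and 6 CCAAT boxes. Ccnb2 has 3 CCAAT boxes at -87, -54 and -21, and a second CHR just after the start, outside the printed letters. Hmmr has 5 CCAAT boxes and its CHR after the start. Cenpe, which like Hmmr had all its anterior values above its posterior ones, has 1 CCAAT box and no CHR in its window. Mad2l1, the gene of the 46 with the largest difference between the pieces, had none of the 3 elements in its window, but its GENCODE start lies 169 bases downstream of the RefSeq start used here, outside that window.

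The libraries differ in ways that touch every result below. Where 3 values are given for the anterior or the posterior libraries, they are those of embryos A, B and C in that order. The table lists 9335 to 11082 genes above 0 in the anterior libraries and 10260 to 12141 in the posterior ones. Relative depth, with anterior A set to 1, reached at most 1.42 in the anterior libraries and was 2.19, 2.83 and 1.56 in the posterior ones. Of the 15 pairs of libraries, 12 fitted these depths and 3 fitted only after a doubling, so a depth may be wrong by that much. As estimated, depth moved with the domain, and its part in the differences was not tested. T, whose reporter chose the pieces, was listed at 0, 0 and 5.44 log2(FPKM + 1) for anterior and at 2.59, 4.05 and 0 for posterior libraries, so embryo C goes against its labels for this gene. The summed level of all 8 primitive streak markers nevertheless lay between 0.0428% and 0.0561% of FPKM in the posterior libraries and between 0 and 0.00856% in the anterior ones, embryo C included. The 9 epiblast markers summed to 0.0517% to 0.0619% of FPKM in anterior and 0.0789% to 0.102% in posterior pieces. Of the 9, 3, 2 and 1 were at 0 in the anterior libraries and 0 in each posterior one. Epcam and Cdh1 were the highest of the 9 in every anterior library, so these sums rest largely on them. Pou5f1 was at 1.66, 0.94 and 3.64 in anterior libraries, Sox2 at 0.81, 0.81 and 5.43, and Nanog at 4.0, 3.12 and 3.58. Markers of other cells were present too. The 15 visceral endoderm markers summed to 0.339%, 0.249% and 0.0259% of FPKM for anterior and 0.154%, 0.688% and 0.134% for posterior libraries, and 10 of them, including Ttr, Rbp4, Hnf4a, Sox17 and Gata4, were at 0 in anterior C. The 11 parietal endoderm and XEN markers summed to 0.333%, 0.387% and 0.0659% in anterior and 0.0813%, 0.0783% and 0.147% in posterior libraries. The 8 trophoblast markers summed to 0.0445% to 0.108%, with Elf5 at 0 in all 3 anterior libraries and posterior C. Of these 8, the keratin Krt18 was highest in every library, at 7.16, 8.01 and 7.14 for anterior and 7.46, 7.59 and 8.75 for posterior. Such sums do not show by themselves how many of these other cells were present. The part of these cells in the results was not tested.

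Mitotic transcripts were abundant in every library. Levels between genes are compared here in FPKM, which is per length. The mean over 6 libraries ran from 11.8 FPKM for Cdc25b, a phosphatase that activates Cdk1, to 369.8 FPKM for Cks1b, a small Cdk-binding protein. The median was 41.8 FPKM, compared with 10.7 FPKM over all tested genes, and all 46 lay above that median gene. Of the 46, 44 were above 0 in all 6 libraries, as 66.9% of tested genes were. The 2 values at 0, for Cdc25b and the kinetochore protein Nuf2, were both in anterior A, and 5 of the 276 values lay under 1 FPKM. The median range of the mitotic genes over the 6 libraries was 2.19 in log2, against 3.03 for all tested genes. It was 3.13 for the 7812 tested genes whose mean lay between the lowest and the highest of the 46. That wide band does not match the genes for level. Values at 0 made up 9.70% of all tested values, against 2 of 276 here, and the part of level in the narrower range was not tested.

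**Figure D1:**
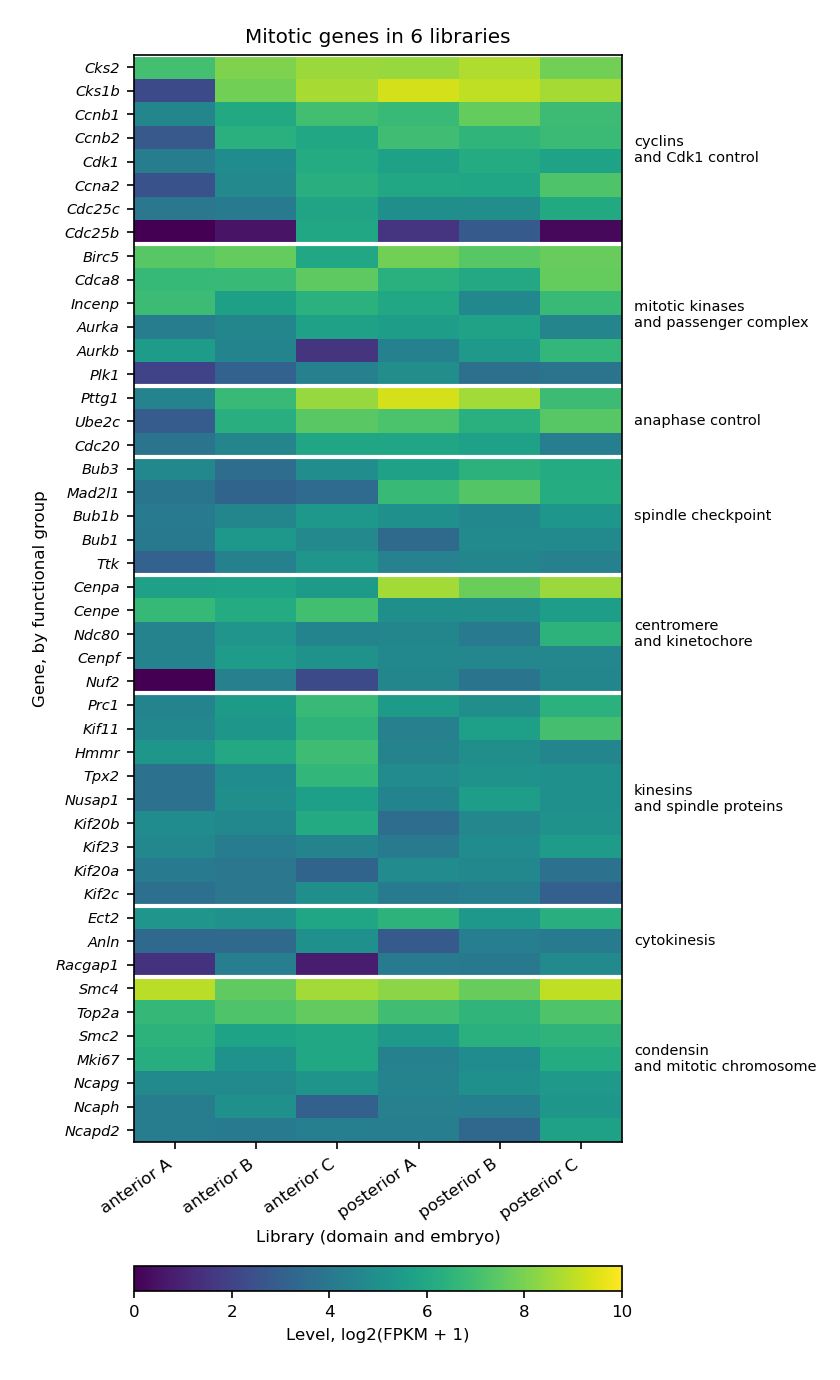
Levels of the 46 mitotic genes, in log2(FPKM + 1), in the 3 anterior and 3 posterior libraries, arranged by role. Cdc25b and Nuf2 are at 0 in anterior A, and the lowest values of the cyclins lie in that library.

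Embryo C had the highest mitotic levels relative to its other genes, in both pieces. The median of the 46 genes was 4.35, 5.01 and 5.91 log2(FPKM + 1) for anterior and 4.99, 5.06 and 5.93 for posterior libraries. The median tested gene was at 2.51, 3.44 and 2.86 for anterior and 3.50, 3.37 and 3.41 for posterior libraries. Expressed as a percentile among tested genes, the median mitotic gene stood at 73.7, 76.7 and 85.6 for anterior and at 74.4, 76.4 and 84.2 for posterior libraries. Both C libraries thus lay above the other 4 by this measure, which also depends on how many other genes are at 0. Of tested genes, 16.1%, 6.73% and 19.0% were at 0 for anterior and 2.42%, 1.97% and 11.9% for posterior libraries. As a share of all FPKM, the 46 genes in posterior C (0.712%) were close to posterior A and B (0.708% and 0.710%). Without Cks1b, the highest of the 46, posterior C (0.645%) lay above posterior B (0.611%) and posterior A. Of the 46 genes, 15 had their highest value in anterior C and 13 in posterior C, whereas 17.8% and 22.6% of all tested genes did. Anterior A held the lowest value of 20 of the 46, beside 29.4% of all tested genes. The summed FPKM of the visceral endoderm markers was also lowest in the 2 libraries of embryo C. Most of each posterior sum came from the single gene Spink3, at 9.56, 11.68 and 9.31 log2(FPKM + 1), so the order of these sums rests on it. Single markers did not all follow the sum: Ttr, Dab2, Foxa2, Gata4 and Sox17 were higher in posterior C than in posterior A. The part of these cells was not tested.

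No single gene carried that difference among embryos past the test. In limma's F test of the embryo terms, 0 of the 46 passed an adjusted p of 0.05, and 0 did of all tested genes (background 0%). At an unadjusted p under 0.05 the count was also 0 of 46, against a background of 2.77%. The smallest unadjusted p values were 0.0734 for Kif11, the motor that pushes spindle poles apart, and 0.0795 for Ccna2 (adjusted p 0.996 for both). Kif11 stood at 4.66, 5.27 and 6.52 for anterior and at 4.37, 5.63 and 7.06 for posterior libraries. Embryo C was highest and embryo A lowest in both pieces.

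As a share of all FPKM, the 46 genes made up 0.537%, 0.470% and 0.766% for anterior and 0.708%, 0.710% and 0.712% for posterior libraries. The anterior libraries averaged 0.591% ± 0.155 and the posterior ones 0.710% ± 0.00192 (SD, n = 3 each). Anterior C lay above all 3 posterior libraries, so the groups overlapped. The posterior pieces were alike in the sum, though less closely in other settings, and not in its parts. Without Cks1b, the highest of the 46, the means were 0.5497% ± 0.132 for anterior and 0.619% ± 0.0234 for posterior libraries (SD). Values of Cks1b are uncertain, as described below. With the 100 genes of highest mean FPKM left out of the total, the means were 0.888% ± 0.217 and 1.048% ± 0.0189. Cyclins and Cdk1 regulators took 0.0529%, 0.135% and 0.233% in anterior and 0.227%, 0.269% and 0.186% in posterior libraries. The condensin and chromosome group took 0.217%, 0.0941% and 0.145% in anterior and 0.0906%, 0.0875% and 0.159% in posterior libraries.

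**Figure D2:**
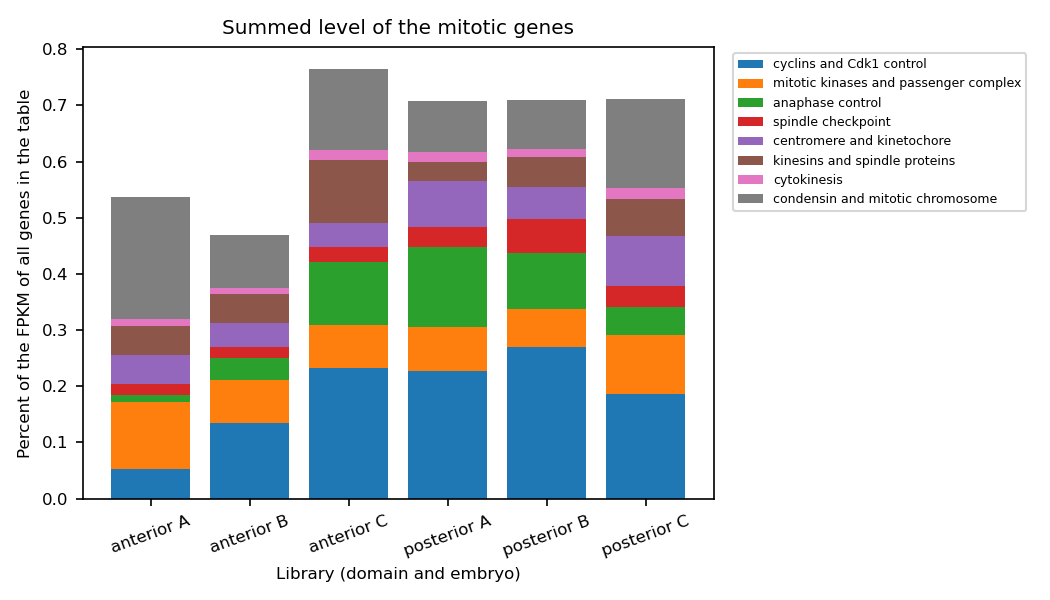
Summed FPKM of the mitotic genes as a percent of all FPKM, by role, in each of the 6 libraries. The posterior totals lie between 0.708% and 0.712%, and the anterior totals between 0.470% and 0.766%, with anterior A low in cyclins and high in condensin genes. Without Cks1b the SD of the posterior totals is 0.0234 in place of 0.00192.

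Between the pieces, no mitotic gene passed the test. In limma's paired fit, 0 of the 46 had an adjusted p under 0.05, and 0 of 10914 tested genes did (background 0%). The smallest adjusted p among the 46 was 0.520. The 46 were higher in posterior on average in 31 cases, beside 64.9% of all tested genes, and their median difference was 0.33 in log2 against 0.43 for all. At an unadjusted p under 0.05, 4 were higher in posterior, namely Mad2l1, Cenpa, Cks1b and Ccna2, beside a background of 7.24%, and 0 were higher in anterior, beside 0.788%. Every posterior library exceeded every anterior one for 4 genes, Mad2l1, Cenpa, Bub3 and Ccnb2, beside 12.3%, and the reverse held for 2, Cenpe and Hmmr, beside 3.77%. In 8 genes the posterior piece was higher in all 3 embryos, beside 21.5%, and in 3 (Cenpe, Hmmr and Kif20b) the anterior piece was, beside 8.25%. The shares of the 46 were thus close to those of the whole table or below them. Without embryo C, where T goes against the labels, the count toward posterior at an unadjusted p under 0.05 was 7, beside 9.13% of all tested genes, and posterior lay above anterior throughout for 21, beside 31.2%. Without embryo A, which holds the shallowest library, these counts were 4, beside 4.62%, and 7, beside 20.1%.

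Quantile normalization, or centring each library on its median gene, removes the general shift by construction: the median of all tested genes was 0.43 in log2 as deposited and -0.06 with either. The count of the 46 that were higher in posterior on average was 31 as deposited, 24 with quantile normalization and 21 with centring. Of genes at an unadjusted p under 0.05, 90.2% were higher in posterior as deposited, 62.0% after quantile normalization and 59.1% after centring. With either scaling, Cenpe and Hmmr reached an unadjusted p under 0.05 toward anterior. Of all tested genes, 2.89% did so with quantile normalization and 2.72% with centring. Group medians are therefore also given relative to the all-gene median difference of the same embryo (0.91, 0.02 and 0.17 in embryos A, B and C).

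**Figure D3:**
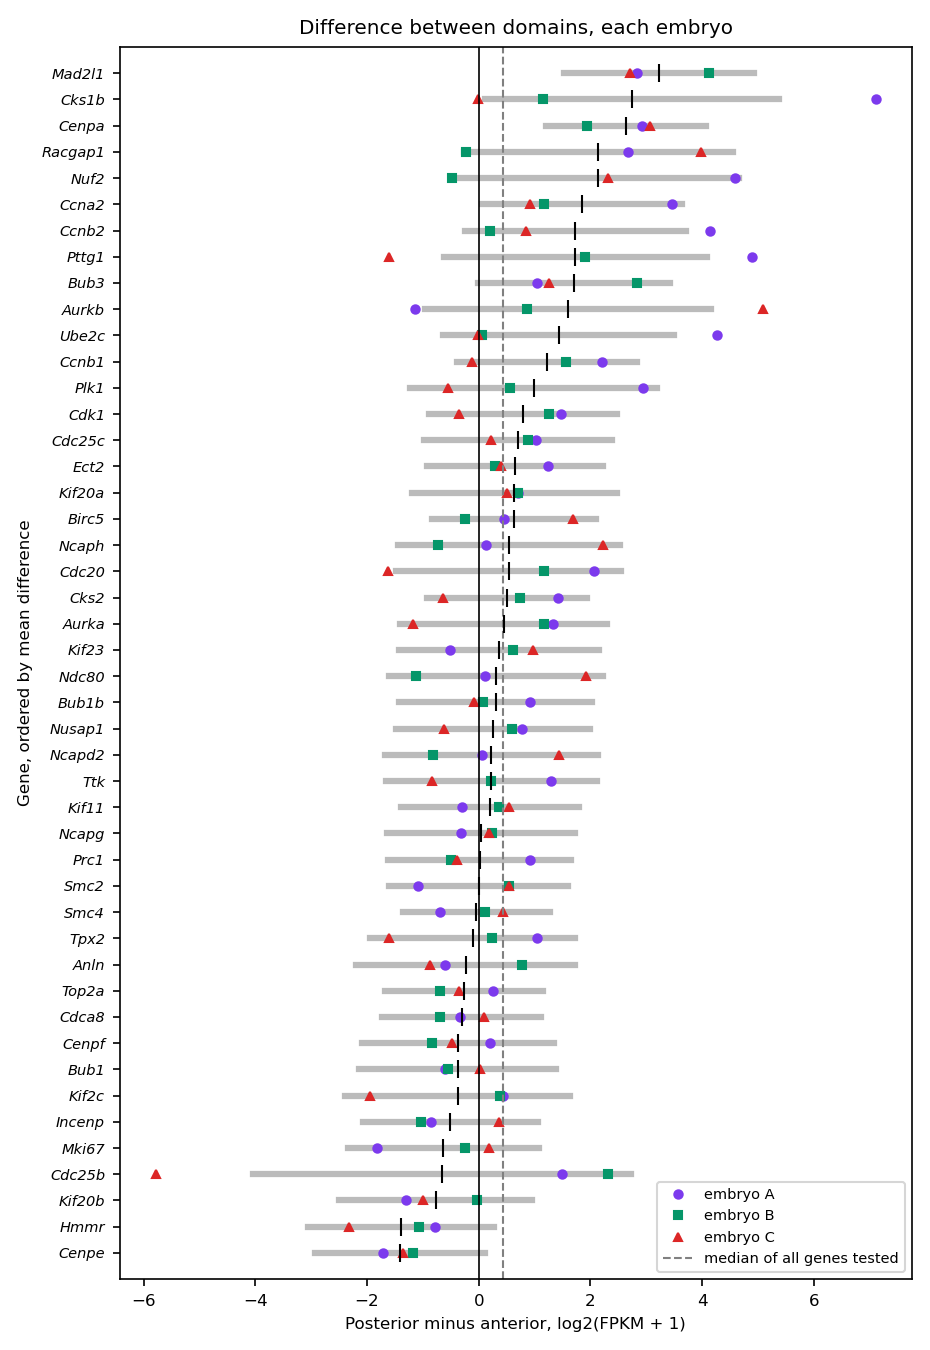
Posterior minus anterior difference of each of the 46 genes in log2(FPKM + 1) ordered by mean, with the value in each embryo (points), the mean (tick) and limma's 95% interval (grey bar); the dashed line is the median of all tested genes. Mad2l1 and Cenpa lie farthest toward posterior among genes whose 3 embryos all point the same way, and Cenpe and Hmmr farthest toward anterior.

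The spindle checkpoint group held the gene with the largest difference. Mad2l1 encodes Mad2, which binds and holds back Cdc20 at unattached kinetochores (chr6:66535390-66547220, plus strand, protein coding, GENCODE on GRCm38). It was at 3.89, 3.21 and 3.48 log2(FPKM + 1) for anterior and at 6.73, 7.34 and 6.19 for posterior libraries. Posterior libraries were all higher, with means of 6.75 ± 0.57 against 3.52 ± 0.34 (SD, n = 3 each). The difference was 3.23 ± 0.76 in log2 (SE, 95% interval 1.53 to 4.93), and limma's adjusted p was 0.520. Leaving out each embryo in turn gave 2.78 to 3.49, so no single embryo set it.

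Its partner Bub3, which brings Bub1 and BubR1 to kinetochores, was at 4.69, 3.59 and 4.89 in anterior and 5.72, 6.42 and 6.15 in posterior libraries. All posterior values were above all anterior ones, by 1.71 ± 0.77 in log2 (SE, limma adjusted p 0.617). The other 3 checkpoint genes overlapped between the pieces. Bub1, the kinase that recruits other checkpoint proteins, was at 4.05 to 5.34 in anterior and 3.45 to 4.78 in posterior libraries. Bub1b, which encodes BubR1, was at 4.09, 4.59 and 5.32 in anterior and 5.0, 4.66 and 5.24 in posterior libraries, a difference of 0.30 ± 0.77 (SE, limma adjusted p 0.928). Ttk, the checkpoint kinase Mps1, had the lowest mean level of the group, at 3.16, 4.38 and 5.21 in anterior and 4.45, 4.60 and 4.37 in posterior libraries. Of the 5 genes, 4 were higher in posterior on average, and the median difference was 0.30, or 0.12, 0.19 and -0.14 relative to all genes in embryos A, B and C.

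Genes of the centromere and kinetochore went in both directions. Cenpa, the histone H3 variant that marks centromeres (chr5:30666777-30674830, plus strand), was at 5.71, 5.82 and 5.43 in anterior and 8.62, 7.75 and 8.50 in posterior libraries. The posterior libraries did not overlap the anterior ones, at 8.29 ± 0.47 against 5.65 ± 0.20 (SD, n = 3 each). The difference was 2.64 ± 0.64 (SE, 95% interval 1.20 to 4.08, limma adjusted p 0.520), and 2.42 to 2.99 without each embryo in turn.

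Cenpe, the kinetochore kinesin that carries chromosomes to the metaphase plate (chr3:135212537-135273611, plus strand), had the opposite pattern. It stood at 6.70, 6.16 and 6.97 in anterior and 4.99, 5.0 and 5.61 in posterior libraries. Every anterior library was higher, by 1.41 in log2 on average (posterior minus anterior -1.41 ± 0.68, SE, limma adjusted p 0.625). Leaving out each embryo gave -1.53 to -1.26. Nuf2, a subunit of the Ndc80 complex that grips microtubules, was listed at 0 in anterior A, at 4.35 and 2.25 in anterior B and C, and at 4.59, 3.86 and 4.57 in posterior libraries. Its complex partner Ndc80 was at 4.46 to 5.22 in anterior and 4.10 to 6.46 in posterior libraries, so the groups overlapped. Cenpf, a large protein of the outer kinetochore, was at 4.48 to 5.47 in anterior and 4.63 to 4.67 in posterior libraries. The group had 3 of 5 genes higher in posterior and a median difference of 0.31, or -0.72, -0.87 and 1.76 relative to all genes in A, B and C.

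Among cyclins and Cdk1 regulators, 7 of 8 were higher in posterior on average, with a median of 1.01. The medians were 1.85, 1.17 and -0.07 in embryos A, B and C, and 0.94, 1.14 and -0.24 relative to all genes, and the number higher in posterior was 8, 8 and 3 of 8. All 8 had their lowest value in anterior A, the library with the lowest depth. Cks1b was at 2.23, 7.87 and 8.68 in anterior and 9.34, 9.03 and 8.66 in posterior libraries, so that anterior A lay far below the other 5. The difference was 2.75 ± 1.17 (SE, limma adjusted p 0.616) and 0.57 without embryo A. A retrocopy, Cks1brt, is annotated elsewhere in the genome, which makes Cks1b values uncertain.

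Ccna2, cyclin A2, was at 2.54, 4.72 and 6.33 in anterior and 6.0, 5.90 and 7.25 in posterior libraries. Its difference of 1.85 ± 0.80 (SE, limma adjusted p 0.617) became 1.05 without embryo A. Ccnb2, cyclin B2, was at 2.77, 6.35 and 5.98 in anterior and 6.92, 6.54 and 6.83 in posterior libraries. The groups did not overlap, yet the difference of 1.73 ± 0.88 (SE, limma adjusted p 0.637) was 0.52 without embryo A. Ccnb1, the main mitotic cyclin, was at 4.58, 6.06 and 6.98 in anterior and 6.80, 7.63 and 6.85 in posterior libraries, with overlap in embryo C. A pseudogene copy, Ccnb1-ps, is annotated, so the level of Ccnb1 is uncertain.

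Cdk1 itself was at 4.24, 4.87 and 6.15 in anterior and 5.71, 6.13 and 5.80 in posterior libraries, a difference of 0.79 ± 0.75 (SE, limma adjusted p 0.770). Anterior C was highest, so the groups overlapped. Cks2, which like Cks1b attaches to Cdk1, had the highest mean log2 level of the group, at 7.03, 8.05 and 8.50 in anterior and 8.44, 8.80 and 7.86 in posterior libraries. Cdc25c, a phosphatase that switches Cdk1 on, was at 3.97, 4.08 and 5.84 in anterior and 4.99, 4.96 and 6.06 in posterior libraries, higher in posterior in each embryo by 0.22 to 1.02 in log2. Cdc25b was listed at 0 in anterior A, at 0.51 in anterior B and at 5.99 in anterior C, and at 1.49, 2.83 and 0.21 in posterior libraries. Anterior C stood far above the other 5 libraries for this gene.

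**Figure D4:**
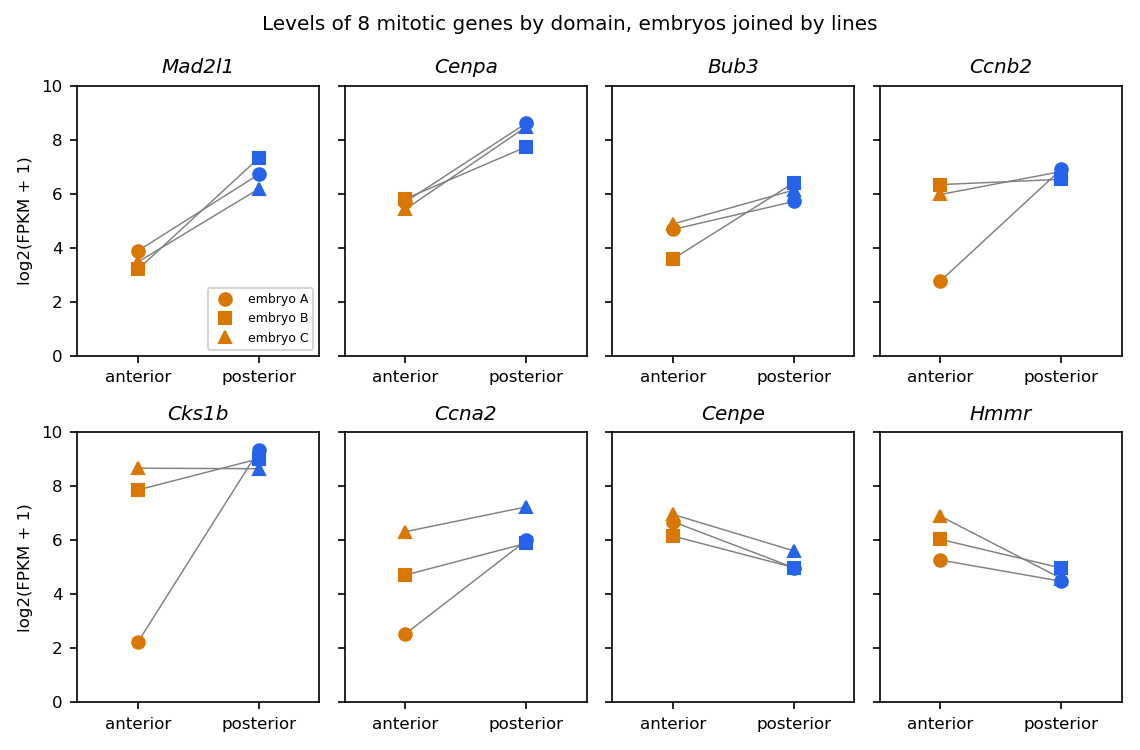
Level in log2(FPKM + 1) of 8 mitotic genes in each library, with lines joining the pieces of an embryo. Mad2l1 and Cenpa are higher in posterior in all 3 embryos, Cenpe is higher in anterior in all 3, and the cyclins separate mainly through anterior A.

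The 3 anaphase regulators, like the cyclins, were lowest in anterior A. Their median differences were 4.26, 1.17 and -1.60 in embryos A, B and C. Pttg1, securin, which holds separase inactive, was at 4.46, 6.72 and 8.47 in anterior and 9.36, 8.62 and 6.87 in posterior libraries. Ube2c, the ubiquitin-conjugating enzyme of the APC/C, was at 2.92, 6.30 and 7.43 in anterior and 7.18, 6.36 and 7.41 in posterior libraries. Cdc20 was at 3.84, 4.57 and 5.91 in anterior and 5.90, 5.74 and 4.28 in posterior libraries, a difference of 0.54 ± 0.90 (SE, limma adjusted p 0.877). Without embryo A the Cdc20 difference was -0.23. In embryo C, Pttg1 and Cdc20 were higher in anterior and Ube2c was nearly even. T goes against the labels in that embryo, while the summed streak markers follow them.

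The mitotic kinases and passenger proteins showed no common direction. Of 6 genes, 4 were higher in posterior on average, with a median of 0.54 and medians of -0.85, 0.13 and 0.07 relative to all genes in A, B and C. Plk1, a kinase needed from mitotic entry to cytokinesis, was at 2.02, 3.14 and 4.40 in anterior and 4.96, 3.69 and 3.85 in posterior libraries. Birc5, survivin, was the most abundant of the group at 7.41, 7.63 and 6.0 in anterior and 7.86, 7.39 and 7.68 in posterior libraries. Incenp, the scaffold of the passenger complex, was at 6.86, 5.69 and 6.38 in anterior and 6.0, 4.66 and 6.74 in posterior libraries. Aurora kinase A (Aurka, 4.23 to 5.77 over the 6 libraries), Aurora kinase B (Aurkb) and Cdca8 (borealin, 6.05 to 7.62) likewise overlapped between the groups. Aurkb had the widest range, from 1.53 in anterior C to 6.62 in posterior C.

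Kinesins and spindle proteins had a median difference of 0.01, with 5 of 9 higher in posterior, which relative to all genes was -0.48, 0.33 and -0.78 in embryos A, B and C. Anterior C held the highest value of 6 of the 9. Hmmr, a microtubule-associated protein of the spindle poles, was at 5.27, 6.04 and 6.90 in anterior and 4.49, 4.98 and 4.59 in posterior libraries. It is described here because its groups did not overlap, a choice made after its values were seen. The difference was -1.39 ± 0.74 in log2 (SE, limma adjusted p 0.640), and -1.69 to -0.93 without each embryo in turn. Prc1, which bundles the central spindle and had the highest mean log2 level, was at 4.52, 5.45 and 6.79 in anterior and 5.45, 4.96 and 6.40 in posterior libraries. Kif2c, a microtubule-depolymerizing kinesin, had the lowest mean level, at 3.66, 3.95 and 4.99 in anterior and 4.09, 4.33 and 3.05 in posterior libraries. Apart from Kif11, described above, the other kinesins and spindle proteins were within 3.22 to 6.63 in anterior and 3.58 to 5.57 in posterior libraries.

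In the cytokinesis group, Ect2, which activates RhoA at the cleavage site, was at 5.23, 5.05 and 5.91 in anterior and 6.47, 5.35 and 6.31 in posterior libraries. It was higher in posterior in each embryo, with overlap between the groups. Racgap1, its partner at the central spindle, was at 1.45, 4.26 and 0.80 in anterior and 4.13, 4.03 and 4.79 in posterior libraries. The 2 low values were in anterior A and C and the difference was 2.14 ± 1.07 (SE, limma adjusted p 0.631), or 1.22 without embryo C and 3.33 without embryo B. Anln, the actin-binding protein anillin, was at 2.82 to 5.0 over the 6 libraries, with overlap between the pieces.

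The condensin and mitotic chromosome group was the nearest to even, with 3 of 7 genes higher in posterior and a median difference of -0.00. Relative to all genes it was -1.22, -0.27 and 0.27 in embryos A, B and C. No gene of the group was lowest in anterior A, and 5 were highest in posterior C. Smc4, a condensin ATPase, was among the most abundant of the 46 at 8.95, 7.55 and 8.60 in anterior and 8.27, 7.66 and 9.03 in posterior libraries. Top2a, topoisomerase II alpha, was at 6.68, 7.23 and 7.61 in anterior and 6.93, 6.53 and 7.26 in posterior libraries, a difference of -0.26 ± 0.63 (SE, limma adjusted p 0.920). Mki67, which encodes the Ki-67 proliferation antigen, was at 6.23, 5.09 and 5.97 in anterior and 4.40, 4.85 and 6.14 in posterior libraries. Its difference was -0.63 ± 0.76 (SE, limma adjusted p 0.825), or -0.04 without embryo A, and the libraries overlapped. Ncapd2, with the lowest mean log2 level of the group, was at 4.23, 4.18 and 4.30 in anterior and 4.29, 3.37 and 5.74 in posterior libraries. Its anterior libraries were thus close together. Smc2, Ncapg and Ncaph, further condensin subunits, were at 3.05 to 6.46 in anterior and 4.30 to 6.51 in posterior libraries.

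In 7 lists of related genes outside the 46, 115 of 126 listed genes were in the fit. None passed an adjusted p of 0.05 in limma, 9 were higher in posterior and 3 in anterior at an unadjusted p under 0.05 (7.24% and 0.788% of all tested genes), and 76 were higher in posterior on average (64.9% of all), with a median of 0.33. The lists cover APC/C subunits, further kinetochore, spindle and condensin genes, cohesin, cell cycle transcription factors, and G1 cyclins and inhibitors. Cdca5 (sororin, which protects sister chromatid cohesion) was at 2.0, 1.27 and 0 in anterior and 4.71, 5.31 and 5.02 in posterior libraries. Ccng2, an atypical cyclin linked to cell cycle exit, was at 6.39, 5.57 and 4.84 in anterior and 1.83, 3.17 and 0 in posterior libraries, and Cdkn1c, an inhibitor of Cdk activity, was at 4.48, 5.45 and 5.57 against 2.56, 3.16 and 3.12. The groups overlapped for none of the 3, which were named for their small p, and limma's adjusted p was 0.520 for both Cdca5 and Ccng2. Of the 15 tested genes in the list of G1 cyclins and inhibitors, 9 were higher in posterior on average. At an unadjusted p under 0.05 in limma, 1 of the 15 was higher in posterior and 2 in anterior. Over the 115, every posterior library exceeded every anterior one for 13, beside 12.3% of all tested genes. The reverse held for 7, beside 3.77%. Melk, a mitotic kinase, was at 5.21, 4.84 and 5.68 in anterior and 3.83, 3.60 and 2.87 in posterior libraries. Among further kinetochore genes, Cenpw was listed at 0 in anterior A and was at 4.18 and 4.18 in anterior B and C, against 6.19, 5.80 and 5.27 in posterior libraries. Cenpp went the other way on average, at 6.74, 4.61 and 5.89 in anterior and 3.99, 4.63 and 1.40 in posterior libraries, and was taken up after its values were seen. Cenpn and Cenpq had a smaller limma p than Cenpp and were higher in posterior on average, by 2.45 and 2.73 in log2. Of the 32 tested genes of that list, 4 were higher in posterior and 1, Cenpp, in anterior at an unadjusted p under 0.05 in limma. The limma adjusted p was 0.573 for Cenpw and 0.608 for Cenpp.

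The difference between pieces went with the length of the coding region. Genes with a short one tended to be higher in posterior, and those with a long one even or higher in anterior. Over the 46, Spearman's rho between posterior minus anterior difference and coding length (longest annotated, GENCODE) was -0.70, and over the 9406 tested genes with a matched length it was -0.23. This is a description over genes of the same 6 libraries, which are not independent, and the relation was looked for after the values were seen. In embryos A, B and C the rho over the 46 was -0.70, -0.55 and -0.13, so it was weak in embryo C. Tested genes were divided by length into 5 classes of about equal size. Of the 7 mitotic genes in the shortest class, 7 were higher in posterior, with a median of 1.73, while of the 18 in the longest class 8 were, with a median of -0.02. Over all genes the corresponding medians were 0.80 and 0.05. With transcript length in place of coding length, rho was -0.52 over the 46 and -0.22 over all. Coding length ran from 237 to 9531 bases: Cenpa has 402 and Mad2l1 615, while Cenpe has 7413 and Mki67 9531. By longest transcript, however, Mad2l1 has 7557 bases, close to the 7910 of Cenpe, so it goes against the relation with transcript length. FPKM is already scaled by length, and the part of library preparation or RNA quality in this relation was not tested.

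**Figure D5:**
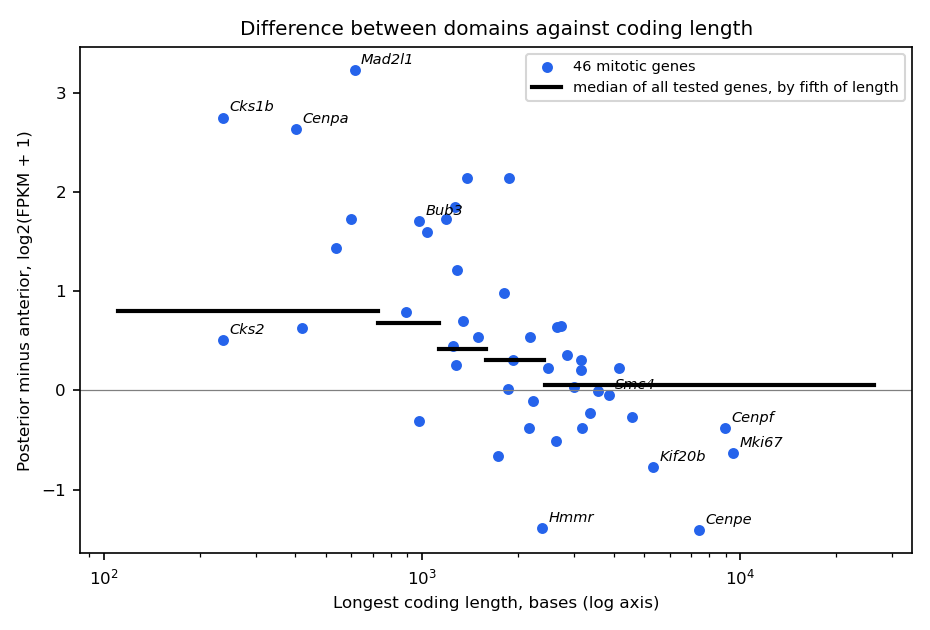
Posterior minus anterior difference in log2(FPKM + 1) against coding length (log axis) for the 46 mitotic genes (points); black bars are medians of all tested genes in 5 length classes. Mitotic genes with short coding regions, Cenpa and Mad2l1 among them, lie above 0, while the 18 in the longest class lie on both sides of it, 8 above and Cenpe farthest below.

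Smart-seq2 does not keep the strand of a read, and 13 of the 46 genes share exon bases with another annotated gene. For 8 of them the other gene is itself in the table: Ccna2 with Exosc9, Cdc20 with Elovl1, Cdca8 with 9930104L06Rik, Kif20a with Cdc23, Ncapg with Lcorl, Nusap1 with Oip5, Prc1 with Rccd1 and Ube2c with Tnnc2. The sources used here do not say how such reads were assigned, so these values are uncertain to that extent.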

How the data were processed

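Each of the 6 libraries is 1 piece of an ETX-embryo. Per the labels' protocols, HTSeq-count was run on reads aligned to Ensembl 38.77. Build mm10, Cufflinks 2.0.2 and TopHat2 2.0.4 are listed in the submitters' processing notes, and the sources used here do not say which tool gave the values. A single table of log2(FPKM + 1) was deposited by the authors, on a scale read from the values, and its log2 values were used unchanged. The design had assumed linear FPKM.

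A minimum mean of 1 FPKM was required. The fit used limma 3.58.1 (R 4.3.3) with the trend option and an embryo term, two-sided, with Benjamini-Hochberg adjustment over 10914 genes and a threshold of 0.05. The fit has 2 residual and 7.50 prior degrees of freedom. The F test of embryo terms came from the same fit. Both pieces of an embryo come from the same individual, so they are paired. Their deviations from the group means correlated at -0.07, 0.04 and -0.03 in A, B and C. The fit was tested on simulated data. Absolute depth is unknown, and relative depth came from the steps of low FPKM. An exact 0 is reported as listed at 0. Differences on this scale understate changes of low genes.

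The 46 genes and all lists were chosen with earlier results of these data known. Values in every library are given for the 8 genes with the smallest p between pieces, the 8 with the smallest p among embryos, the highest and lowest of each group, 6 chosen for their role (Ccnb1, Cdk1, Mki67, Top2a, Cdc20 and Bub1b) and, from related lists, genes among the 3 with the smallest p in each. Lengths and coordinates come from GENCODE on GRCm38, and promoters from RefSeq.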

Additional observations from a re-analysis of the deposited data

How the results depend on the processing

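No mitotic gene passed the adjusted threshold under any of the alternatives run, although 25 other genes did without embryo A and 8 without embryo C. With no replicate block, 3 of the 46 were higher in posterior and 1 in anterior at an unadjusted p under 0.05, against 4 and 0 in the paired fit. Of all tested genes, 8.36% and 1.09% were with no block. That anterior count was 2 with quantile normalization, with median centring and with anterior A alone left out, beside 2.89%, 2.72% and 1.73% of all tested genes. Without the trend the posterior count was 2, beside 7.20%. Anterior libraries lay above all posterior ones for 4 of the 46 with either scaling. That held for 8.60% of all tested genes with quantile normalization and 7.90% with centring. With centring, 5 of the 46 were higher in posterior in every embryo, and the share of all genes was not computed for that setting. The median difference of the 46 was -0.15 with centring. Relative to all genes it was -0.28 with a pseudocount of 0.1, 0.13 with 10, and 0.11 with quantile normalization. Bub1b was at -0.19 with centring, which lowers the difference of every gene by the same amount. Leaving out each embryo in turn gave 0 to 25 genes past the threshold, 4 to 7 of the 46 at an unadjusted p under 0.05 toward posterior, 14 to 23 higher in posterior in every remaining embryo, 7 to 21 with posterior above all anterior, 2 to 5 with anterior above all posterior, a median difference of 0.18 to 0.57 and -0.31 to 0.086 relative to all genes; Cdc20 ranged from -0.23 to 1.62 and Bub1b from -0.0032 to 0.50. With fewer libraries such counts of non-overlap rise by construction: posterior was above all anterior for 20.1%, 29.7% and 31.2% of all genes without A, B and C. Anterior was above all posterior for 13.4%, 9.09% and 14.1% of all genes in the same settings. At an unadjusted p under 0.05 in limma, 4.62%, 5.86% and 9.13% of all genes were higher in posterior. Counting values under 1 FPKM gave 5 in place of 2 at 0. The cause of these changes was otherwise not tested. Of the other values, 93 for counts, medians and shares stayed within 1.5 times or 1 SD of the reported one, and 178 for single genes kept direction and call. Among the 93, the count higher in posterior on average went from 31 of 46 to 24 with quantile normalization and 21 with centring. For the median difference that SD was 0.41, more than the reported 0.33, so the rule passes all but large changes. The median difference of 0.05 with quantile normalization was among those it passed. Depth, lowest in anterior A, limits values near 0.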
